A study of Mus musculus with 10 samples.

Results

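The genes described here are the core of acetylcholine signalling: choline acetyltransferase (Chat), acetylcholinesterase (Ache), the high-affinity choline transporter (Slc5a7), 4 muscarinic receptors (Chrm1, Chrm2, Chrm3 and Chrm4) and 3 nicotinic receptor subunits (Chrna4, Chrna7 and Chrnb2). They were taken as the probe sets whose only annotated symbol was one of these names. Each of the 10 genes had exactly 1 probe set, which gave 10 of the 21789 probe sets with a single gene symbol. The study compared adult brains of mice that were or were not exposed to alcohol early in life. Dams of the C57BL/6J strain had 10% ethanol in their water, or plain water for the controls, from the start of gestation until pups were at postnatal day 10. Whole brains of male offspring were collected at postnatal day 70, and 200 ng of RNA per array was labelled for Affymetrix whole-transcript arrays. Experiment 1 comprised 2 control and 2 ethanol arrays, each from pooled RNA of 3 mice, and experiment 2 comprised 3 control and 3 ethanol arrays, each from 2 mice. The drinking covered pregnancy and the first days of nursing together, so exposure before and after birth cannot be told apart.

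Acetylcholine is made from choline and acetyl-CoA by choline acetyltransferase and is loaded into vesicles by the vesicular transporter Slc18a3. After release it is split by acetylcholinesterase, and the choline transporter Slc5a7 returns choline to the terminal. Neurons that make it lie in the basal forebrain, the striatum, the brainstem and the cranial motor nuclei, whereas its receptors are spread over most brain regions. Muscarinic receptors couple to G proteins (Chrm1 and Chrm3 to Gq, Chrm2 and Chrm4 to Gi), and nicotinic receptors are ion channels made of 5 subunits.

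None of the 10 genes passed the test across all genes in any comparison. Their deposited values were log2 expression levels, and every difference below is ethanol minus control on that scale, with its standard error (SE) from limma and a Benjamini-Hochberg adjusted p over 21789 probe sets. At an adjusted p of 0.05, limma called 0% of all gene probe sets in experiment 1, 0% in experiment 2, 0% over both experiments and 0% for the difference between the experiments. At an unadjusted p under 0.05 the same fits held 1951, 2172, 2703 and 1432 probe sets, and an unmoderated linear model also called 0 in each comparison. Ache was lower on all 5 ethanol arrays than on the controls of the same experiment, as were 2.82% of all gene probe sets. In experiment 2 all 3 ethanol arrays were lower for Slc5a7, as for 11.6% of all, and higher for Chrm4, as for 7.62% of all. Chat differed by -0.01 ± 0.05 over both experiments, and its groups overlapped in each.

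The array medians ran from 6.99 to 7.05, and correlations between arrays ran from 0.989 to 0.996. For each probe set the means of the 2 experiments were equal to within 5.83e-05, so a level cannot be compared between experiments, and array values are compared only within one. The 7 pan-neuronal markers averaged 11.7 to 11.8 on the arrays, and their median difference was -0.02 over both experiments. Some markers of other tissues and regions were apart between the treatments, though 0 of them passed the adjusted test. The pituitary list was higher in ethanol for 6 of 6 genes in each experiment, with list means of 5.96 to 6.15 (control) and 7.77 to 8.71 (ethanol) in experiment 1 and of 6.50 to 7.02 and 6.67 to 9.45 in experiment 2, where without ethanol replicate 2 the median was -0.02 and 3 of 6 were lower. The cerebellar list was lower for 8 of 8 genes in each experiment, with a median difference of -0.33 in experiment 1 and -0.13 in experiment 2. Its list means were 10.95 to 10.97 (control) and 10.45 to 10.82 (ethanol) in experiment 1, and 10.80 to 10.96 and 10.54 to 10.83 in experiment 2, where the groups overlapped. Without ethanol replicate 3 the median of experiment 2 was -0.04 with 6 of 8 lower. In experiment 1 it was -0.14 without ethanol replicate 2 and -0.53 without ethanol replicate 1.

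Where these genes start differs in base composition, and 3 stretches are shown because their genes gave the differences described next. Promoter windows from 250 bases before to 50 after the start were taken from RefSeq on GRCm38.p6 and were found for 9 of the 10 genes. Each stretch runs 5′ to 3′ on the gene's strand from 210 to 11 bases before the start, with every CG dinucleotide in capitals. They are Ache at chr5:137288044-137288243 on the plus strand with 18 CG, Slc5a7 at chr17:54299045-54299244 on the minus strand with 1 CG, and Slc18a3 at chr14:32464861-32465060 on the minus strand with 19 CG.
Ache: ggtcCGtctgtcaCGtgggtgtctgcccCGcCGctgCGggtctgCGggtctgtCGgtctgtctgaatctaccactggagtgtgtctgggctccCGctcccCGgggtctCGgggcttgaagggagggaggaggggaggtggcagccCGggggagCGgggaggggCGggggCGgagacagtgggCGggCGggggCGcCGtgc
Slc5a7: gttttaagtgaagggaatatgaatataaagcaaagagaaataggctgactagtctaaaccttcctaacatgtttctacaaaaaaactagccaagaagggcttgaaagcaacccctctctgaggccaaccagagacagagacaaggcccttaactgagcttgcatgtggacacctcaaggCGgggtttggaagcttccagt
Slc18a3: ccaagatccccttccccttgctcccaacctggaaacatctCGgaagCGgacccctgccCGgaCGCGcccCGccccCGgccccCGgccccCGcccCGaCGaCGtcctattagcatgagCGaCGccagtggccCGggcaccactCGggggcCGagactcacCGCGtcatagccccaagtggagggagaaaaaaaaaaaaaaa
The windows of Ache and Slc5a7 lay far apart: the whole 300-base window of Ache held 30 CG and that of Slc5a7 held 1, against a median of 7 over 32851 RefSeq windows. Of all windows, 88.3% had fewer CG than that of Ache and 5.43% had fewer than that of Slc5a7. The receptor windows ranged from 11 CG in Chrm3 through 12 in Chrnb2, 16 in Chrm2, 30 in Chrm4 and 33 in Chrna4 to 35 in Chrna7, and Chat held 10. The GC box core GGGCGG, read on both strands, was present in 6 of the 9 windows and in 35.7% of all windows, with 4 matches each in Ache and Chrm4 and none in Chat, Slc5a7 or Chrm3. The letters GCGGGGGCG, which can share bases with that core, were present in Ache (2 matches), in Chrna7 (1 match) and in 2.91% of all windows. The arrays measure RNA only, so these letters are a description and no site was tested.

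Chat stayed near its controls in both experiments, while Slc5a7 was lower in experiment 2. Array values are given in the order of the replicate numbers. Chat, which makes acetylcholine, read 6.07 and 6.09 on the control arrays of experiment 1 and 6.14 and 6.08 on its ethanol arrays. In experiment 2 it read 6.19, 6.03 and 6.13 in controls and 6.02, 6.06 and 6.17 in ethanol. Low and high values occurred in both treatments, and the groups overlapped in each experiment. Its difference was 0.03 ± 0.07 in experiment 1 and -0.04 ± 0.06 in experiment 2, and over both it was -0.01 ± 0.05 (95% interval -0.11 to 0.09, adjusted p = 0.947).

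Slc5a7, which takes choline back into the terminal, read 7.25 and 7.19 in controls of experiment 1 and 7.26 and 7.06 in ethanol, where the groups overlapped. In experiment 2 the controls read 7.19, 7.40 and 7.35 and the ethanol arrays 6.97, 7.09 and 7.16. Every ethanol array of experiment 2 was below every control array. The difference there was -0.24 ± 0.08 (95% interval -0.41 to -0.08), or 1.18-fold lower, with an unadjusted p of 0.00786 and an adjusted p of 0.371 in limma. In experiment 1 it was -0.06 ± 0.09, and over both it was -0.17 ± 0.06 (unadjusted p = 0.0165, adjusted p = 0.338, limma). Of 5 ethanol arrays 4 were below their control mean, a count not taken over all gene probe sets. The experiments' differences themselves were -0.18 ± 0.12 apart (adjusted p = 0.843), and -0.08 without ethanol replicate 1 of experiment 1 or -0.28 without ethanol replicate 2.

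Slc18a3, the vesicular transporter whose gene lies within the span of Chat, was, like Slc5a7, lower on all ethanol arrays of experiment 2. It read 6.37, 6.62 and 6.46 in controls and 6.25, 6.27 and 6.18 in ethanol of experiment 2, without overlap. The difference was -0.25 ± 0.07 (adjusted p = 0.318). In experiment 1 the controls read 6.37 and 6.41 and the ethanol arrays 6.39 and 6.28, a difference of -0.06 ± 0.08. Chat and Slc18a3, which both mark cholinergic neurons, gave values of different size in experiment 2, -0.04 against -0.25. The gap between the genes was not tested. Both probe sets were dim, at mean levels of 6.10 (Chat) and 6.36 (Slc18a3). Ckm, a skeletal muscle gene, read 6.27 in the same brain pools, but the 6 measured muscle genes ranged from 4.81 to 7.36. They set no single background level. The probe sets of Chat and Slc18a3 may still lie near background, and a difference could be missed.

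Both enzymes that break acetylcholine down had lower means in ethanol in each experiment, and neither passed the adjusted test. Ache, the synaptic acetylcholinesterase, read 9.58 and 9.33 in controls and 9.13 and 9.29 in ethanol of experiment 1. Controls of experiment 2 read 9.36, 9.44 and 9.46 and its ethanol arrays 9.24, 9.15 and 9.35. All ethanol arrays were below all control arrays of their experiment, although in experiment 2 the nearest values were 9.35 and 9.36 and the groups overlapped after quantile or cyclic loess scaling. The difference was -0.25 ± 0.10 in experiment 1 (unadjusted p = 0.0235, adjusted p = 0.481) and -0.17 ± 0.08 in experiment 2 (unadjusted p = 0.0514, adjusted p = 0.503). Over both it was -0.20 ± 0.06 (95% interval -0.33 to -0.07), or 1.15-fold lower, with an unadjusted p of 0.00491 and an adjusted p of 0.306. The control array at 9.58 carried much of the value in experiment 1, which was -0.13 (unadjusted p = 0.247) without control replicate 1 and -0.37 without control replicate 2.

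Bche, butyrylcholinesterase, which also splits acetylcholine, read 7.29, 7.54 and 7.47 in controls and 7.22, 7.16 and 7.13 in ethanol of experiment 2. The groups did not overlap, and the difference was -0.26 ± 0.07 (adjusted p = 0.345). In experiment 1 it read 7.26 and 7.46 in controls and 7.21 and 7.29 in ethanol, which overlapped, and over both experiments the difference was -0.20 ± 0.06 (adjusted p = 0.306). Of the 9 other genes listed for acetylcholine synthesis, packaging and breakdown, 8 were measured, and 6 of the 8 were lower over both experiments with a median of -0.08. Over all gene probe sets 54.4% were lower, with 42.1% in the second quartile of level and 77.3% and 77.5% in the upper quartiles. Slc18a3, Bche and Colq were in the second quartile. None of the 8 passed the adjusted test, and 3 were lower at an unadjusted p under 0.05, against 7.68% of all: Slc18a3, Bche and Pcyt1a. Pcyt1a, an enzyme of phosphatidylcholine synthesis, was at -0.13 ± 0.04 (adjusted p = 0.326). Colq, the collagen tail that anchors acetylcholinesterase at the neuromuscular junction, was at -0.10 ± 0.08.

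**Figure D1:**
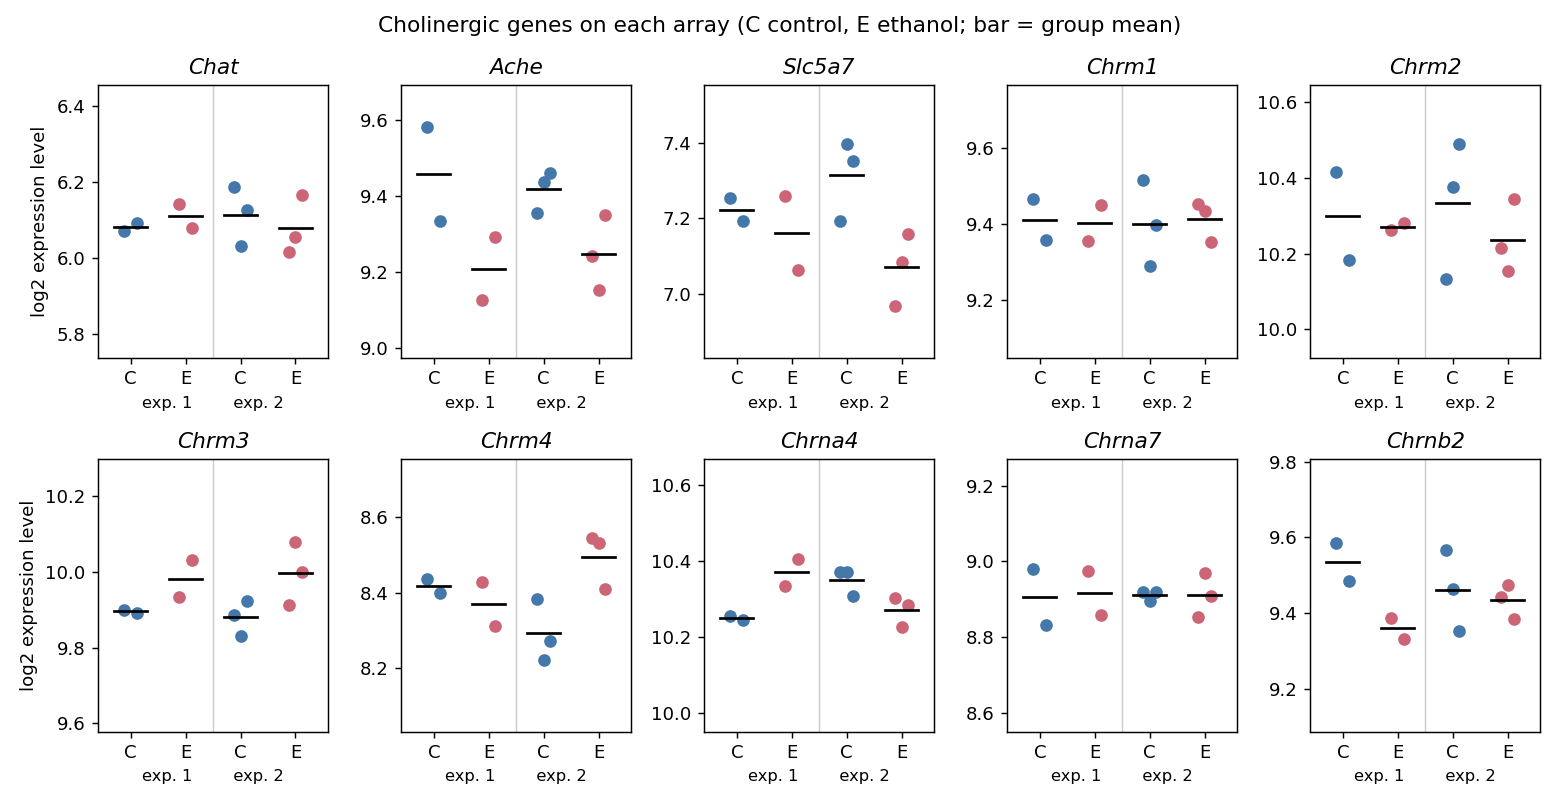
Deposited log2 level (vertical axis) of each cholinergic gene on each of the 10 arrays, by experiment and treatment; points are arrays and bars are group means. Ache is lower on each of the 5 ethanol arrays than on the controls of the same experiment, while the Chat groups overlap in both.

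The muscarinic receptors gave differences of both signs, none of which passed the adjusted test. Chrm4, the Gi-coupled receptor abundant in the striatum, read 8.38, 8.22 and 8.27 in controls and 8.54, 8.53 and 8.41 in ethanol of experiment 2. All ethanol arrays were above all controls, and the difference was 0.20 ± 0.06 (95% interval 0.07 to 0.34), or 1.15-fold higher, with an unadjusted p of 0.00755 and an adjusted p of 0.371. After each array was centred on its median the groups overlapped and the difference was 0.16. In experiment 1 the controls read 8.44 and 8.40 and the ethanol arrays 8.43 and 8.31, a difference of -0.05 ± 0.08. The gap between the experiments was 0.25 ± 0.10 (unadjusted p = 0.0272, adjusted p = 0.745), and over both the difference was 0.10 ± 0.06 (adjusted p = 0.478). Of 7 striatal markers, 6 were lower in experiment 2 (median -0.08). They were in the third and highest quartiles of level, where 71.0% and 73.2% of all gene probe sets were lower in that experiment. In experiment 1, where 70.7% and 67.3% of those quartiles were lower, 6 of 7 were higher (median 0.07). That median was 0.02 with 3 of 7 lower without control replicate 2, and 0.12 without control replicate 1. The small Chrm4 difference of experiment 1 changed sign to 0.0029 after quantile normalization. The part of these markers in the values of Chrm4 was not tested.

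Chrm3, a Gq-coupled receptor, read 9.90 and 9.89 in controls and 9.93 and 10.03 in ethanol of experiment 1, without overlap. In experiment 2 it read 9.89, 9.83 and 9.92 in controls and 9.91, 10.08 and 10.00 in ethanol, where one ethanol array lay just under the highest control. After quantile or cyclic loess scaling all ethanol arrays of experiment 2 were above its controls. It was above the control mean on 5 of 5 ethanol arrays, a count not taken over all gene probe sets. The difference over both was 0.10 ± 0.04 (95% interval 0.01 to 0.20, unadjusted p = 0.0334, adjusted p = 0.375), from 0.09 ± 0.07 in experiment 1 and 0.12 ± 0.06 in experiment 2. With 1 array left out in turn, the unadjusted p stayed under 0.05 in 4 of 10 fits and was 0.102 without ethanol replicate 2 of experiment 2.

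Chrm1, the main Gq-coupled receptor of cortex and hippocampus, read 9.47 and 9.36 in controls and 9.36 and 9.45 in ethanol of experiment 1. Controls of experiment 2 read 9.52, 9.29 and 9.40 and its ethanol arrays 9.45, 9.43 and 9.35. The groups overlapped in both experiments, and the 95% interval of the difference over both ran from -0.11 to 0.11. After quantile scaling the ethanol arrays of experiment 1 were all higher. Chrm2, the Gi-coupled receptor found on cholinergic terminals, read 10.41 and 10.18 in controls and 10.26 and 10.28 in ethanol of experiment 1. In experiment 2 it read 10.13, 10.38 and 10.49 in controls and 10.21, 10.15 and 10.35 in ethanol. Its groups overlapped too, and the difference over both was -0.07 ± 0.07 (95% interval -0.22 to 0.08, adjusted p = 0.686). It ran from -0.02 without control replicate 3 of experiment 2 to -0.12 without its control replicate 1. Chrm2 had the widest spread of the 10 genes, with a pooled SD within groups of 0.137 against a median of 0.0809 over all gene probe sets.

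Among the nicotinic subunits, Chrna4 lay on different sides of its controls in the experiments, and none passed the adjusted test. Chrna4, which pairs with Chrnb2 in the high-affinity nicotinic receptor, read 10.26 and 10.24 in controls and 10.33 and 10.41 in ethanol of experiment 1. Controls of experiment 2 read 10.37, 10.37 and 10.31 and its ethanol arrays 10.30, 10.23 and 10.28. Ethanol arrays were thus all higher in experiment 1, as for 15.1% of all gene probe sets, and all lower in experiment 2, as for 11.6%. The differences were 0.12 ± 0.06 and -0.08 ± 0.05, and they were -0.20 ± 0.08 apart (95% interval -0.37 to -0.02, unadjusted p = 0.0288, adjusted p = 0.745). After quantile or cyclic loess scaling the groups of experiment 2 overlapped. Chrna4 had the narrowest spread of the 10 genes, with a pooled SD of 0.0377.

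Chrnb2, its partner subunit, read 9.59 and 9.49 in controls and 9.39 and 9.33 in ethanol of experiment 1. In experiment 2 it read 9.57, 9.46 and 9.35 in controls and 9.44, 9.47 and 9.38 in ethanol. All ethanol arrays were lower in experiment 1 and the groups overlapped in experiment 2. The difference was -0.18 ± 0.08 in experiment 1 (unadjusted p = 0.0441, adjusted p = 0.547) and -0.03 ± 0.06 in experiment 2, and without control replicate 1 of experiment 1 it was -0.13 (unadjusted p = 0.214). In experiment 1 the subunits of this receptor therefore lay on opposite sides of their controls. Chrna7, which forms receptors of its own, read 8.98 and 8.83 in controls and 8.97 and 8.86 in ethanol of experiment 1. Controls of experiment 2 read 8.92, 8.89 and 8.92 and its ethanol arrays 8.85, 8.97 and 8.91. Its groups overlapped in both, and the 95% interval over both ran from -0.09 to 0.10.

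**Figure D2:**
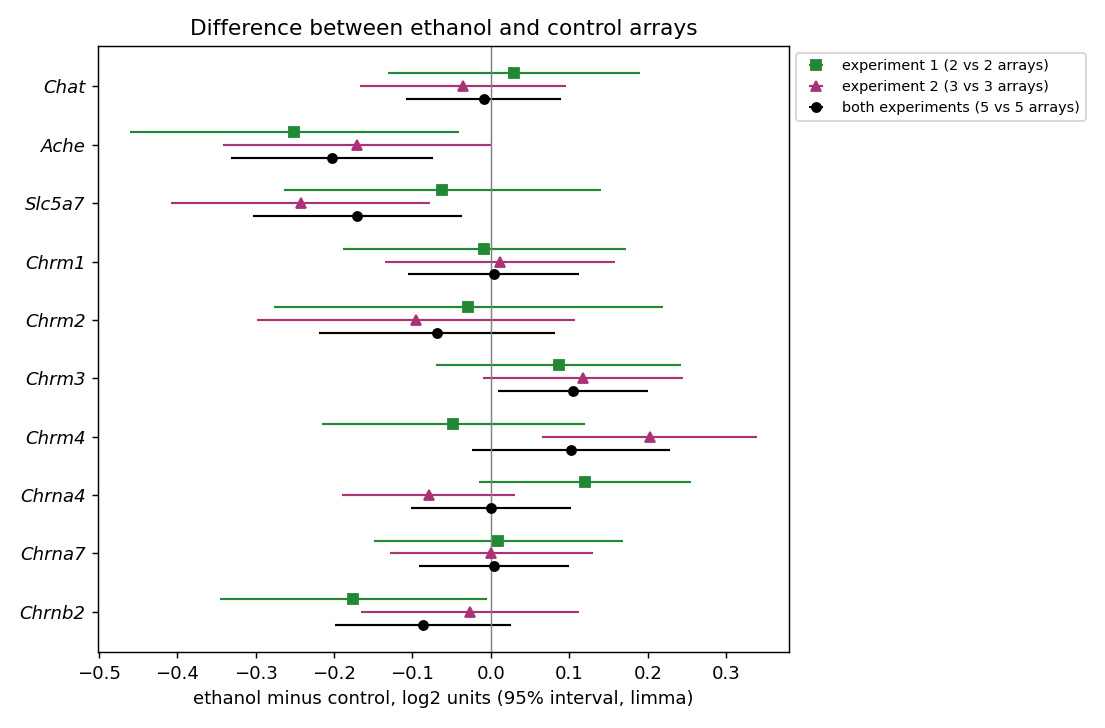
Ethanol minus control (log2, horizontal axis) of each cholinergic gene in experiment 1, experiment 2 and over both, with 95% intervals from limma. Intervals leave out 0 for Slc5a7 (-0.24) and Chrm4 (0.20) in experiment 2 and for Ache and Chrnb2 in experiment 1. Over both they do so for Ache, Slc5a7 and Chrm3. Chrna4 lies on opposite sides of 0 in the experiments. No difference passed the adjusted test.

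Counts over the 10 genes were read against all gene probe sets. At an unadjusted p under 0.05, 2 genes were lower (Ache and Chrnb2) and 0 higher in experiment 1, against 4.93% and 4.02% of all. In experiment 2, 1 was lower (Slc5a7) and 1 higher (Chrm4), against 6.19% and 3.78%. Over both experiments 2 were lower (Ache and Slc5a7) and 1 higher (Chrm3), against 7.68% and 4.72%, and for the difference between experiments 2 passed (Chrm4 and Chrna4), against 6.57%. Groups that did not overlap were common. In experiment 1, 2 genes were lower throughout and 2 higher throughout, against 19.2% and 15.1% of all, and in experiment 2, 3 were lower and 1 higher, against 11.6% and 7.62%. Ache was the only one of the 10 lower throughout in both experiments, against 2.82% of all, and 0 were higher throughout in both, against 1.47%.

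The median difference over the 10 genes was -0.02 in experiment 1, -0.03 in experiment 2 and -0.0045 over both, against -0.0045, -0.01 and -0.0083 over all gene probe sets. The median difference over all genes varied with signal level, and 6 of the 10 genes were in the highest quartile of mean level. In that quartile 77.5% of probe sets were lower over both experiments with a median of -0.04, and 3 of the 6 cholinergic genes were. Ache, at -0.20, was below that median and Chrm3, at 0.10, above it. Slc5a7 and Chat were in the second quartile, where the median was 0.02 and 42.1% were lower. Chrm4 and Chrna7 were in the third, where the median was -0.05, and both were higher than that.

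**Figure D3:**
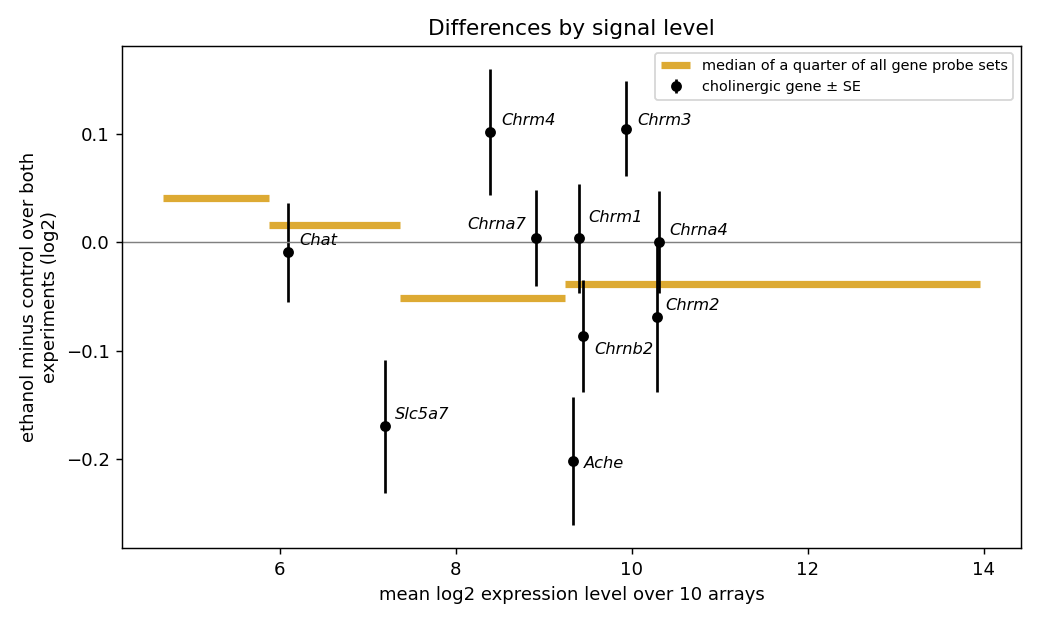
Ethanol minus control over both experiments (log2, vertical axis) against mean log2 level over 10 arrays for each cholinergic gene; points carry ± SE and horizontal bars are medians of the quartiles of all gene probe sets by level. Ache and Slc5a7 lie below the bar of their level and Chrm3 and Chrm4 above.

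Arrays also varied within groups. Over the 10 arrays, with group means removed, the probe set most like Slc5a7 was Isl1, a LIM-homeodomain factor of cholinergic, motor and pituitary cells that stood on the marker list for cholinergic neurons. Their deviations gave Pearson r = 0.995, followed by Mapre1 at 0.987 and BC016579 at 0.978. These are the highest of 21789 values, removing group means left 6 degrees of freedom, and they are given as a description. Isl1 read 6.65, 6.83 and 6.78 in controls and 6.42, 6.51 and 6.59 in ethanol of experiment 2, all lower, with a difference of -0.25 ± 0.07 (adjusted p = 0.353). In experiment 1 it read 6.67 and 6.6 in controls and 6.73 and 6.53 in ethanol, a difference of -0.01 ± 0.09. Since Isl1 was taken as the highest r, that of any other gene is lower by construction. For the other markers of cholinergic neurons r was 0.631 for Gbx1, 0.558 for Lhx8, 0.541 for Slc18a3, 0.345 for Ngfr and -0.29 for Mnx1.

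**Figure D4:**
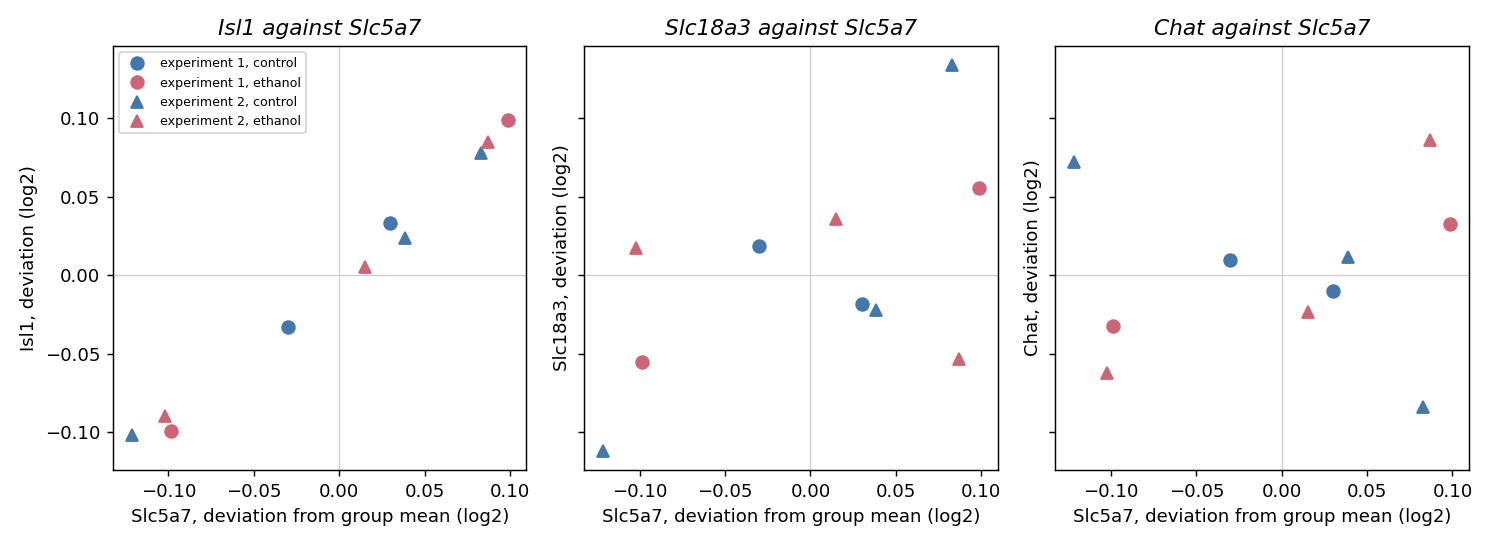
Deviation from the group mean (log2) of Isl1, Slc18a3 and Chat on the vertical axes against that of Slc5a7 on the horizontal axis, one point per array, 10 arrays. Isl1, chosen as the probe set with the highest r, lies near a line (r = 0.995), and r is 0.541 for Slc18a3 and 0.0994 for Chat.

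The marker list for cholinergic neurons as a whole was not lower throughout. In experiment 2, 3 of its 6 measured genes were lower, with Isl1 and Slc18a3 at -0.25 each, Ngfr at -0.05 and Lhx8 at 0.11. In experiment 1, 5 of the 6 were lower (median -0.06), and over both experiments 4 of the 6 were. Of all gene probe sets, 54.9% were lower in experiment 2, 51.8% in experiment 1 and 54.4% over both. In pooled whole-brain RNA, fewer cells of a type and less RNA per cell cannot be told apart. For Chat the probe sets most alike were Serpinb9c (r = 0.992), Col4a5 (0.977) and C730029A08Rik (0.974), and for Chrm4 they were Nup54 (0.998), Ppp2r2a (0.992) and Porcn (0.987).

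Covariation was tested for 6 pairs with a two-sided exact permutation test within groups, whose smallest p is 0.00694, and none passed. Slc5a7 and Slc18a3 gave r = 0.541 (p = 0.264, adjusted p = 0.528, exact permutation) and Spearman rho = 0.479 (p = 0.347), with r = 0.450 without the 2 farthest arrays and 0.817 and 0.470 within experiments 1 and 2. Chat and Slc18a3 gave r = -0.66 (p = 0.153, adjusted p = 0.458, exact permutation) and rho = -0.44 (p = 0.347), with r = -0.40 without the 2 farthest arrays. Within experiments that pair took opposite signs, at 1.00 in experiment 1 and -0.89 in experiment 2. With group means removed, the 4 arrays of experiment 1 are 2 mirrored pairs. An r within experiment 1 therefore says little for any pair given here. Chrm1 and Chrm4 gave r = 0.622 (p = 0.146, adjusted p = 0.458, exact permutation) and rho = 0.588 (p = 0.146), with r = 0.25 without the 2 farthest arrays and signs that differed between the experiments (-0.42 and 0.942). The adjusted p of rho was 0.694 for each of these 3 pairs in the exact permutation test. The other pairs had r of 0.0994 (Chat with Slc5a7), 0.193 (Chrna4 with Chrnb2) and -0.041 (Chat with Ache), each with an adjusted p of 0.903 in the exact permutation test. Their rho was 0.248, 0.0182 and 0.0061, with exact permutation p of 0.590, 0.979 and 1, and r without the 2 farthest arrays was 0.149, -0.036 and -0.34. Within experiments 1 and 2 their r was 0.832 and -0.055, -0.35 and 0.371, and -0.77 and 0.241.

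None of the remaining genes of the pathway passed the adjusted test. Of 14 other receptor subunits, all measured, 6 were lower and 8 higher over both experiments (median 0.02), and 0 passed at an unadjusted p under 0.05 in limma. The smallest unadjusted p values belonged to Chrng (0.11 ± 0.06), Chrna6 (-0.09 ± 0.05), Chrna9 (0.13 ± 0.08) and Chrna2 (0.08 ± 0.05). Their mean levels were low, at 5.75, 5.76, 5.66 and 5.51. All were in the lowest quartile, where 20.7% of all gene probe sets were lower over both experiments and the median was 0.04. Within experiments, Chrm5 was at 0.27 ± 0.10 in experiment 1 and -0.11 ± 0.08 in experiment 2, and Chrna6 was at -0.16 ± 0.06 in experiment 2. Of 8 measured genes for nicotinic receptor chaperones and lynx proteins, 5 were lower and 3 higher (median -0.03). Ric3, a chaperone that assists Chrna7 assembly, was at -0.13 ± 0.04 (adjusted p = 0.326, limma). Its level was in the third quartile, where 77.3% of all gene probe sets were lower over both experiments. Ly6h, a lynx-family protein, was at 0.12 ± 0.06, Tmem35a, the chaperone also called NACHO, at -0.08 ± 0.06, and Lypd6b at -0.04 ± 0.05. Of 11 measured muscarinic signalling partners 5 were lower and 6 higher (median 0.02), and none passed at an unadjusted p under 0.05. The nearest were Plcb4 (-0.08 ± 0.04), Gna11 (-0.07 ± 0.04), Rgs9 (0.05 ± 0.05) and Gnai1 (-0.04 ± 0.04).

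Markers of other regions gave the following medians in experiments 1 and 2. Cortex and hippocampus gave 0.04 and -0.09, thalamus and habenula 0.06 and -0.03, and hindbrain and brainstem 0.02 and 0.01. In that last list 6 of 8 genes were higher in experiment 1. At an unadjusted p under 0.05 in limma, 1 was lower and 1 higher there, against 4.93% and 4.02% of all. Slc6a5, the glycine transporter of inhibitory hindbrain neurons, was lower on both ethanol arrays at -0.60 ± 0.17 (unadjusted p = 0.00397, adjusted p = 0.384), and -0.07 in experiment 2. Slc6a2, the noradrenaline transporter, was at 0.17 ± 0.07 (adjusted p = 0.481). Hoxd4, of the same list, was at 0.14 ± 0.04 over both experiments (unadjusted p = 0.00617, adjusted p = 0.311, limma), at a low mean level of 5.32. The part of these markers in the lower Ache and Chrnb2 of experiment 1 was not tested. Choroid plexus gave -0.08 (-0.04 without control replicate 1) and -0.35, with 6 of 6 genes lower in experiment 2, where list means were 9.01 to 9.10 in controls and 8.66 to 8.84 in ethanol. Olfactory mucosa gave -0.02 and -0.05, and skeletal muscle -0.02 and -0.0021. The part of the choroid plexus and pituitary signals in the lower Slc5a7, Slc18a3, Bche and Isl1 of experiment 2 was not tested.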

How the data were processed

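Whole-brain RNA of 10 pools of male mouse brains was measured on Affymetrix whole-transcript arrays. The authors deposited a log2 level for each of 35556 probe sets on each array. The submitters' processing notes name Partek 6.6. How background, normalization and batch were handled is not given in the sources used here. Because the deposited log2 values have equal means in the experiments for each probe set, no level was set across them. Arrays were grouped from their titles. Probe sets were named from the platform annotation; 1621 with several symbols and 12146 not listed were not tested.

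Differences were fitted with limma 3.58.1 in R 4.3.3 (lmFit and eBayes) on 21789 probe sets, with 4 group means, or experiment plus treatment for both together, and Benjamini-Hochberg adjustment at 0.05. Pools hold different mice, but nothing says whether litters were shared. The p-values therefore cover only the spread of these pools. The 10 arrays limit the precision, with a median SE of 0.0519 over both experiments. Deviations were tested by exact permutation. The members, lists and markers were chosen with earlier results of these data known. Named genes were all members and up to 4 genes of each list with the smallest unadjusted p over both experiments. The 3 genes most alike in pattern to Chat, Slc5a7 and Chrm4 were named too. Lhx8, Ngfr, Gbx1, Mnx1, Chrm5, Slc6a5, Slc6a2, Hoxd4, Ckm, Gnaq and Tac1 were named outside these rules after their values were seen. Alternatives were quantile normalization, median centring, cyclic loess, a filter on dim probe sets, all probe sets, an unmoderated model, array weights, a replicate block, experiments fitted alone and each array left out. The procedure was tested on simulated data, where calls were required only for changes far larger than those of the cholinergic genes. It therefore does not show that changes of their size would be called. Figures were drawn with matplotlib 3.10.9. The labels do not say whether same-numbered arrays were paired.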

Additional observations from a re-analysis of the deposited data

Results flagged for a closer look

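Chrna4 is the one result set aside for a closer look. The reason is that all ethanol arrays lay above the controls in experiment 1 and all lay below them in experiment 2. The pattern was not particular to Chrna4, since the listed genes Gnaq, Gnai1 and Tac1 showed it too. Its share over all gene probe sets was not counted. After quantile or cyclic loess scaling the Chrna4 groups of experiment 2 overlapped. The difference in experiment 2 was -0.20 (-0.199) log2 units below that in experiment 1, with a limma p of 0.0288 before adjustment and 0.745 after it. With 1 array left out in turn it ran from -0.23 to -0.16, and the unadjusted p stayed under 0.05 in 4 of 10 fits. No group held 4 arrays or more, so single arrays were not tested as outliers.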

How the results depend on the processing

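Of 650 alternative values for the cholinergic genes, 602 kept their sign and their side of the adjusted threshold, 48 changed sign, and none passed it; a changed sign occurred only where the main difference was at most 0.67 times its SE. The number of gene probe sets called was 2 in experiment 2 with array weights and 1 in experiment 1 fitted alone. With 1 array left out in turn it ran from 0 to 235 in experiment 1, 0 to 1 in experiment 2, 0 to 1 over both and 0 to 94 for the difference between experiments; the 235 and 94 came without ethanol replicate 1 of experiment 1. A lone remaining array was assumed to vary like the other groups. Deviations of same-numbered control and ethanol arrays had r of -0.052 in experiment 1, and 0.0062, -0.15 and 0.23 in experiment 2. For arrays with different numbers r was 0.052 in experiment 1 and ran from -0.23 to 0.21 in experiment 2. In experiment 1 these values mirror each other by construction. Whether the numbers pair the arrays was not tested. The replicate block called 0 in all 4 comparisons and changed no call. Leaving out arrays, the difference ran in experiment 1 from -0.0031 to 0.062 (Chat), -0.16 to 0.037 (Slc5a7), -0.062 to 0.045 (Chrm1), -0.14 to 0.086 (Chrm2), -0.11 to 0.0095 (Chrm4) and -0.064 to 0.083 (Chrna7). In experiment 2 it ran from -0.078 to 0.0011 (Chat), -0.045 to 0.070 (Chrm1), -0.029 to 0.029 (Chrna7) and -0.081 to 0.026 (Chrnb2). Over both it ran from -0.029 to 0.014 (Chat), -0.028 to 0.034 (Chrm1), -0.029 to 0.023 (Chrna4) and -0.019 to 0.026 (Chrna7), and for Ache between experiments from -0.044 to 0.20. After quantile normalization experiment 1 gave Chat -0.021, Chrm1 0.050, Chrm2 0.013 and Chrm4 0.0029, and experiment 2 gave Chrnb2 0.0032. Cyclic loess gave Chat -0.0063, Chrm1 0.048, Chrm2 0.012 and Chrm4 0.0071 in experiment 1 and Chrnb2 0.016 in experiment 2. Median centring gave Chrm1 -0.028 and Chrna7 -0.039 in experiment 2, and Chrm1 -0.024, Chrna4 -0.027 and Chrna7 -0.023 over both; array weights gave Chrna4 -0.029 over both. The cause of these changes was not tested. Among all probe sets at an unadjusted p under 0.05 over both experiments, 1674 were lower and 1029 higher as deposited, 1375 and 482 after quantile normalization, 2945 and 425 after median centring, and 1015 and 697 after cyclic loess. Slc5a7 over both had an unadjusted p of 0.0508 without ethanol replicate 1 of experiment 2. With arrays left out, also added after seeing the data, the pituitary median of experiment 2 ran from -0.016 to 1.28. Slc18a3, Bche and Isl1, added after seeing the data, stayed lower in experiment 2 at -0.31 to -0.18, -0.34 to -0.21 and -0.30 to -0.20.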
